A study of Mus musculus with 2 samples.

Results

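The genes described here are 10 receptors and integrin chains that guide where blood stem and progenitor cells travel and lodge: Cxcr4, S1pr1, Robo4, Selplg, Itga4, Itga6, Itgal, Itgb1, Itgb2 and Itgb7. They were chosen by name, as a set of homing receptors, and all 10 were found among the 31053 genes of the deposited count tables. Droplet single-cell sequencing read the RNA of sorted LSK cells, which carry Sca1 and much c-Kit and little or no marker of mature lineages; blood stem cells and early multipotent progenitors fall in this gate. From the spleen came 6546 cells with 85937174 unique molecular identifiers (UMIs, each standing for 1 captured RNA molecule), and from the bone marrow 10088 cells with 73740963 UMIs. Both tissues were taken from tumour-bearing C57BL/6 mice, whose liver tumour was made by injecting 750000 Hepa1-6 cells (a mouse hepatoma line) in 25 µl into the left liver lobe at 6 to 8 weeks of age. Tumour-free mice were not analysed here, and how many mice were pooled for either library is not given in the sources used here. With 1 library per tissue there is no replicate check and no test, the tissues and their libraries cannot be told apart, and every interval below is a 95% interval that covers counting error only.

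Movement of blood stem cells between niche, blood and tissue depends on retention signals, exit signals and adhesion. CXCR4 is the receptor for the chemokine CXCL12 and holds stem cells in the marrow, ROBO4 is a roundabout-family receptor known from endothelium and from mouse blood stem cells, where it takes part in marrow lodging, and S1PR1 senses sphingosine-1-phosphate and draws cells towards blood and lymph. PSGL-1, the product of Selplg, binds selectins when cells roll on vessel walls. Integrins work as pairs of an alpha and a beta chain: alpha4 joins beta1 to bind VCAM-1 and fibronectin or beta7 to bind MAdCAM-1, alpha6 joins beta1 to bind laminin, and alphaL joins beta2 to form LFA-1, which binds ICAM-1.

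The identity of the sorted cells bears on every value below. The median depth was 9978 UMIs per cell in spleen and 5991 in bone marrow, and 16 barcodes occurred in both libraries. The authors' cell table assigns each cell to 1 of 8 clusters (HSC-1, HSC-2, HSC-3, LP, DCP, MP, MCP and MEP, abbreviations that the table does not spell out) and to a label from a mouse cell atlas. Cells are here called immune-labelled when their atlas label names a dendritic, T, NK, innate, B, plasma, mast, basophil, eosinophil, monocyte or macrophage cell. Labels that name a progenitor, such as the Ctsg-high monocyte progenitor of 106 bone marrow cells, and neutrophil labels were not counted as immune. Immune labels were carried by 3529 of 6546 spleen cells (53.9%) and by 120 of 10088 bone marrow cells (1.19%). Immune-labelled cells made up 99.6% of spleen MP cells and 67.8% of bone marrow MP cells, and 30.0% of spleen HSC-1 cells and 0.0396% of bone marrow HSC-1 cells. The summed level of 10 dendritic or antigen-presenting markers was 12623 CPM (counts of a gene scaled to 1000000 UMIs of all genes) in spleen and 928 CPM in bone marrow, and that of 10 stem cell markers, of which each was detected in both libraries, was 637 CPM in spleen and 2537 CPM in bone marrow. Whole-library results for the members are therefore given for all cells and without immune-labelled cells. Fewer cells of a type and less RNA per cell cannot be told apart in a whole-library sum.

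The promoter windows of 3 members are shown because these genes differed between the tissues over all cells: Robo4 was the member with the lowest spleen to bone marrow ratio, and Itga4 and Itgb7 encode 2 chains of 1 heterodimer that were both called higher in spleen, a call that neither kept without immune-labelled cells. Each window runs from 250 bases before to 50 bases after the RefSeq gene start and is written 5′ to 3′ on the strand of the gene; RefSeq windows were at hand for 5 of the 10 members. Capitals mark matches on either strand to motifs named for the ETS family (AGGAAG), the RUNX family (TGTGGT), the KLF family (CACCC) and, for the GATA family of factors, the letters AGATAA, and adjoining capitals can be matches that lie side by side or overlap.
Robo4, mm10 chr9:37401722-37402021, plus strand: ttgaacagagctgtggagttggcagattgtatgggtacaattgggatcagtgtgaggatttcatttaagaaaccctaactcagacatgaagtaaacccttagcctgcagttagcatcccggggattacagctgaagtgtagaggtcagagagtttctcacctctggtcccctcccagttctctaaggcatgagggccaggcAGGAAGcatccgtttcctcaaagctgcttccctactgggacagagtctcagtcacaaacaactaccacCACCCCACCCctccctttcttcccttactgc
Itga4, mm10 chr2:79255176-79255475, plus strand: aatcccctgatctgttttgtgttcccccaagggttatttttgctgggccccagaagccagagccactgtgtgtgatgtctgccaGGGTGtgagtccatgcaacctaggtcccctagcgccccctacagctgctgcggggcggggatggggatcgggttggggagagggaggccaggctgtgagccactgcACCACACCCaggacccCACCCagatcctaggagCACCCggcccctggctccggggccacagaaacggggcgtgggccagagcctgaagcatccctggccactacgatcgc
Itgb7, mm10 chr15:102231886-102232185, minus strand: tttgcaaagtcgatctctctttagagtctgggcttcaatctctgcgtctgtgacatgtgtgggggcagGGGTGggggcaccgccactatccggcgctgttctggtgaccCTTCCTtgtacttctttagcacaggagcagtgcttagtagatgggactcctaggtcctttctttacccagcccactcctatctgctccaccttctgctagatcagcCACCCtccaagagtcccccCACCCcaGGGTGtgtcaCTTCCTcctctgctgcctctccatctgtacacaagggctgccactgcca
The AGGAAG letters occurred once in the Robo4 window, 49 bases before its start, and at 2 places in the Itgb7 window, against 35.4% of all 32851 windows with a match. CACCC occurred at 2 places in the Robo4 window and at 4 places in each of the Itga4 and Itgb7 windows, and 57.5% of all windows hold it. TGTGGT occurred once, in the Itga4 window (16.8% of all windows), and AGATAA in none of the 3 windows (11.2% of all windows). These matches describe letters only and were not tested as binding sites.

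Over all cells, the retention and exit receptors and the laminin receptor chain Itga6 were lower in spleen LSK cells than in bone marrow LSK cells, while the alpha4, beta2 and beta7 chains were higher. A gene is called higher or lower here when its ratio, with 1 CPM added to both levels, reaches 1.5-fold and its mean level is at least 10 CPM, a filter that all 10 members passed. By this limit 4 members were lower (Cxcr4, S1pr1, Robo4 and Itga6), 3 were higher (Itga4, Itgb2 and Itgb7) and 3 lay between (Selplg, Itgal and Itgb1). Of all 8644 genes that passed the filter, 18.3% were lower and 10.8% were higher. Without immune-labelled cells, 6 members were lower (Cxcr4, S1pr1, Robo4, Selplg, Itga6 and Itgal), 0 were higher and 4 lay between, where 23.7% of 8515 genes were lower and 14.4% were higher. In this sum the MEP cluster held most UMIs of the spleen cells left, while it gave 5.69% of all bone marrow UMIs. The part of MEP in these calls was not tested. With the clusters weighted alike as well, S1pr1 was the only member called lower and Itgb7 the only member called higher.

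**Figure D1:**
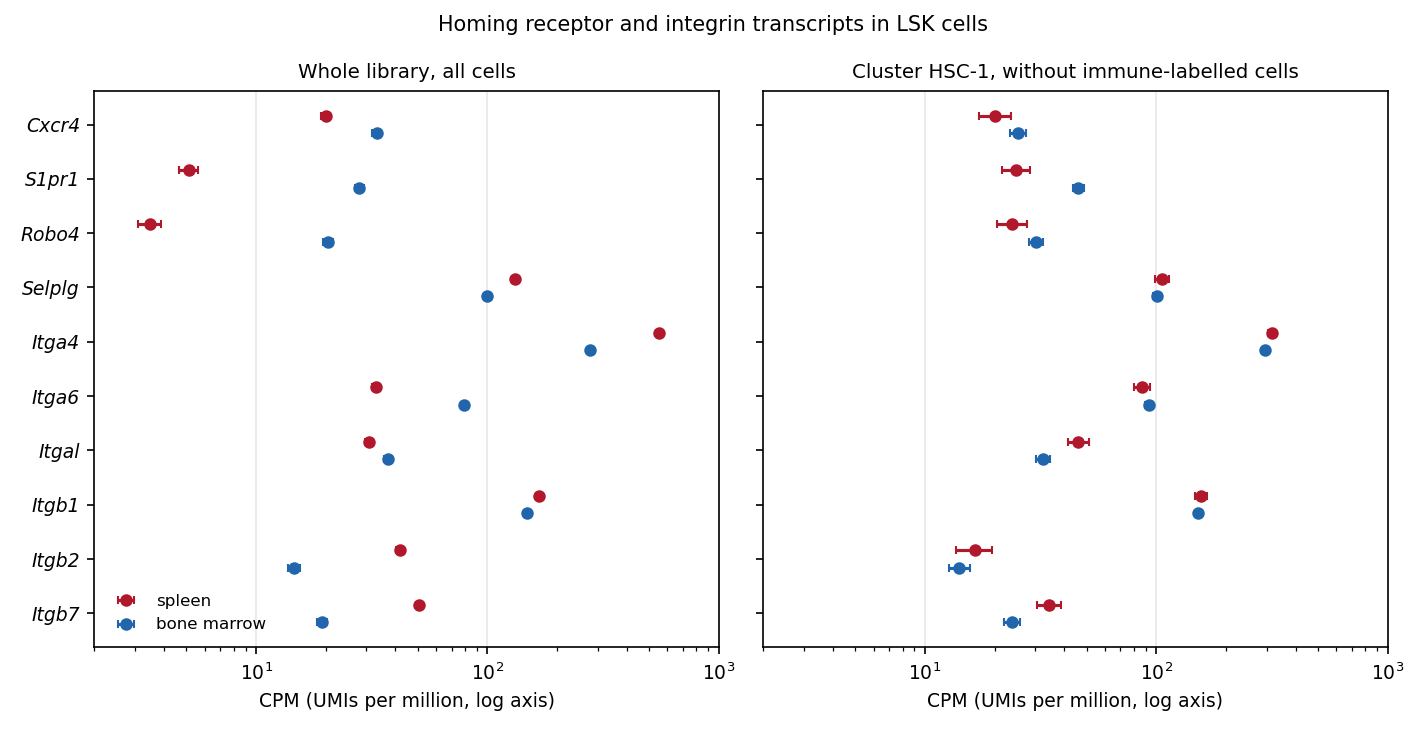
Level of each gene in CPM (log axis) in spleen (red) and bone marrow (blue), over all cells of each library (left) and in cluster HSC-1 without immune-labelled cells (right). Points are 1 library each and bars are 95% counting intervals. In the left panel S1pr1 and Robo4 stand at 5.11 and 3.47 CPM in spleen, against 27.9 and 20.5 CPM in bone marrow, and in the right panel most pairs of points lie close together.

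S1pr1 (chromosome 3, 115710433 to 115715072, minus strand of mm10) had 439 UMIs or 5.11 CPM in spleen and 2058 UMIs or 27.9 CPM in bone marrow, a spleen to bone marrow ratio of 0.183 (0.165 to 0.203). Without immune-labelled cells it had 7.10 CPM in spleen and 28.0 CPM in bone marrow, a ratio of 0.253 (0.226 to 0.283). Within bone marrow S1pr1 was highest in HSC-1. Within spleen HSC-1 also came first, but its interval (17.1 to 22.4) overlapped that of MCP (13.4 CPM, 8.28 to 20.4). Spleen cells with the atlas label of a mast cell held 28.0 CPM (18.4 to 40.7), from 27 UMIs. HSC-1 held 23.5% of spleen cells and 50.0% of bone marrow cells. Inside HSC-1 the S1pr1 level was 19.6 CPM in spleen and 46.0 CPM in bone marrow, a ratio of 0.426 (0.367 to 0.493). Without immune-labelled cells the HSC-1 levels were 24.8 CPM in spleen and 46.0 CPM in bone marrow, a ratio of 0.540 (0.461 to 0.628), and S1pr1 was the 1 member called there, where 2.17% of 8705 genes were called lower and 1.63% higher. Over all HSC-1 cells S1pr1 and Robo4 were called lower and Itgb2 and Itgb7 higher, where 5.48% of 8716 genes were lower and 4.96% higher.

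The same direction for S1pr1 was seen in every cluster with at least 100 cells in both libraries. The ratio interval lay below 1 in 7 of 7 such clusters, with ratios between 0.0300 in MP and 0.466 in HSC-2, although in 3 of them (LP, MP and MEP) the mean level was under 10 CPM and no call was made. Without immune-labelled cells, 5 clusters kept enough cells and the interval lay below 1 in 4 of them. The exception was LP, where only 4 spleen UMIs remained and the ratio was 0.441 (0.115 to 1.22). The atlas labels gave the same order: in cells labelled as Ctla2a-high multipotent progenitors S1pr1 had 18.4 CPM in spleen and 30.1 CPM in bone marrow, a ratio of 0.610 (0.522 to 0.710), and in cells labelled as megakaryocyte progenitors it had 14.9 CPM in spleen and 37.6 CPM in bone marrow, a ratio of 0.397 (0.293 to 0.531).

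The share of cells with an S1pr1 UMI, over all HSC-1 cells, was also lower in spleen at equal depth. In HSC-1, 12.0% of spleen cells (10.4 to 13.7) and 19.1% of bone marrow cells (18.0 to 20.2) held a UMI. After every cell was thinned to 3700 UMIs these shares were 6.58% in spleen (5.30 to 8.05) and 14.3% in bone marrow (13.3 to 15.4). Immune-labelled cells, 30.0% of HSC-1 in spleen and 0.0396% in bone marrow, are included in these shares. The HSC-1 ratio of S1pr1 levels, from cells not thinned, was 0.426 (0.367 to 0.493) with them and 0.540 (0.461 to 0.628) without them. Their part in the difference of the shares was not tested. In spleen MP cells, a cluster of mostly dendritic-labelled cells with a median of 10725 UMIs, the unthinned share was 0.566% (0.245 to 1.11), given as the background share in another cell type; the median depth of HSC-1 was 6934 UMIs in spleen and 4794 in bone marrow.

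Robo4 (chromosome 9, 37401897 to 37415115, plus strand) had 298 UMIs or 3.47 CPM in spleen and 1512 UMIs or 20.5 CPM in bone marrow, a ratio of 0.169 (0.149 to 0.192). Without immune-labelled cells it had 5.52 CPM in spleen and 20.7 CPM in bone marrow, a ratio of 0.267 (0.234 to 0.303). HSC-1, HSC-2 and HSC-3 supplied 63.8%, 20.5% and 8.72% of its spleen UMIs. No Robo4 UMI was found among 1413 spleen MP cells, which allows a share of cells with a Robo4 UMI, not of cells that express it, of up to 0.261%, against 10 UMIs in 118 bone marrow MP cells. In bone marrow it came first in DCP (30.9 CPM, 25.4 to 37.2) and next in HSC-1 (30.2 CPM, 28.1 to 32.4), and the intervals of these neighbours overlapped.

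Inside HSC-1 Robo4 was 17.5 CPM in spleen and 30.2 CPM in bone marrow over all cells, a ratio of 0.579 (0.492 to 0.679). Without immune-labelled cells it was 23.8 CPM in spleen and 30.2 CPM in bone marrow, a ratio of 0.788 (0.668 to 0.925) that no longer passed 1.5-fold. In LP the level was 1.02 CPM in spleen, from 6 UMIs, and 23.5 CPM in bone marrow, from 118 UMIs, a ratio of 0.0433 (0.0156 to 0.0971), where 10.7% of 8491 genes were called lower. In LP without immune-labelled cells it had 4.53 CPM in spleen, from 5 UMIs, and 23.7 CPM in bone marrow, a ratio of 0.192 (0.0611 to 0.460). The interval lay below 1 in all 7 clusters over all cells and in all 5 clusters without immune-labelled cells. The mean level was under 10 CPM, with no call made, in 3 of the 7 (HSC-2, MP and MEP) and 2 of the 5 (HSC-2 and MEP). MEP had 2 UMIs in spleen and 11 in bone marrow. Inside HSC-1 the ratio was 1.04 (0.670 to 1.60) in cells labelled as fetal-liver stem and progenitor cells. It was 0.762 (0.630 to 0.916) in Ctla2a-high multipotent progenitors of HSC-1.

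Cxcr4 (chromosome 1, 128588199 to 128592293, minus strand) had a level of 20.0 CPM in spleen (1715 UMIs) and 33.2 CPM in bone marrow (2445 UMIs), a ratio of 0.602 (0.566 to 0.640). Without immune-labelled cells the levels were 13.7 CPM in spleen and 33.2 CPM in bone marrow, a ratio of 0.413 (0.380 to 0.449). Within clusters over all cells it was called lower in 1 of 7, MEP, with 7.62 CPM in spleen and 16.7 CPM in bone marrow, a ratio of 0.457 (0.349 to 0.605), where 13.5% of 7612 genes were lower. In HSC-1 the levels were 20.2 CPM in spleen and 25.2 CPM in bone marrow, a ratio of 0.803 (0.686 to 0.936). Without immune-labelled cells Cxcr4 was called lower in 3 of 5 clusters, HSC-2, HSC-3 and MEP, with ratios of 0.601, 0.659 and 0.451, where 2.52%, 7.06% and 13.7% of genes were lower.

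In the order of Cxcr4 levels over 15 library and cluster sums, LP, HSC-3 and DCP came first in both tissues: 46.7, 41.4 and 38.7 CPM in spleen, against 50.5, 49.4 and 43.2 CPM in bone marrow. The intervals of neighbours among these 6 sums overlapped. MEP of the spleen came last. Among spleen cells, those with the atlas label of a gamma-delta T cell held 49.9 CPM of Cxcr4. The whole-library call for Cxcr4 did not pass in 4 other settings: with each cell weighted alike the log2 ratio was -0.43, with thinned cells -0.42, with TMM scaling -0.50 and with clusters weighted alike -0.39.

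Selplg (chromosome 5, 113818536 to 113832644, minus strand) had 132 CPM in spleen (11359 UMIs) and 99.5 CPM in bone marrow (7340 UMIs), a ratio of 1.33 (1.29 to 1.37). Immune-labelled cells supplied 76.3% of its spleen UMIs and 2.77% of its bone marrow UMIs. Without them its level was 51.2 CPM in spleen and 98.0 CPM in bone marrow, a ratio of 0.522 (0.499 to 0.546). The MEP cluster, which gave 36.8% of all spleen UMIs and 5.69% of all bone marrow UMIs, held 18.7 CPM of Selplg in spleen and 26.2 CPM in bone marrow. Inside HSC-1, HSC-2 and HSC-3 without immune-labelled cells the Selplg ratios were 1.05, 0.980 and 0.871. Weighting the clusters alike after removing immune-labelled cells gave a log2 ratio of 0.03, and TMM scaling of all cells gave 0.61, past the limit.

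Over all cells, HSC-2 had Itga4 and Itgb7 higher and S1pr1 lower, where 1.67% of 8496 genes were higher and 2.77% lower. The HSC-2 call for Itga4 was lost without immune-labelled cells (ratio 1.36). LP had Selplg, Itga4, Itgb2 and Itgb7 higher and Robo4 and Itga6 lower, where 8.9% of 8491 genes were higher and 10.7% lower. The LP calls for Selplg (ratio 1.31) and Itgb2 (ratio 1.22) were lost without immune-labelled cells. In HSC-3, over all cells, Itga4, Itgb2 and Itgb7 were higher and S1pr1, Robo4 and Itga6 lower, where 5.77% of 8539 genes were higher and 8.77% lower. In HSC-3 without immune-labelled cells, which were 42.8% of its spleen cells, Itga4 (ratio 1.93 over all cells, 1.17 without them), Itgb7 and Itga6 lost their calls and Cxcr4 was called lower. In DCP the 4 members called higher were Selplg, Itga4, Itgb2 and Itgb7, and the 3 called lower were again S1pr1, Robo4 and Itga6, where 13.7% of 8443 genes were higher and 32.5% lower. Spleen DCP cells were 84.8% immune-labelled and bone marrow DCP cells 0.794%. Without these cells 46 spleen cells were left in DCP, too few for a call. The ratios were then 0.781 for Selplg, 1.10 for Itga4, 1.17 for Itgb2 and 0.836 for Itgb7. For S1pr1, Robo4 and Itga6 they were 0.770, 0.598 and 0.776. The interval of each of these ratios included equal levels. In MP, Itga4 was higher (ratio 2.06, 1.85 to 2.29) and Itga6 lower (ratio 0.188, 0.136 to 0.262), where 8.03% of 8044 genes were higher and 29.7% lower. Immune-labelled cells were 99.6% of MP in spleen and 67.8% in bone marrow. Without them MP kept 6 spleen cells and 38 bone marrow cells, too few for a call. MEP had 0 members higher and 3 lower, Cxcr4, Itga6 and Itgal, with or without immune-labelled cells; over all cells 7.46% of genes were higher there and 13.5% lower, and without immune-labelled cells 7.65% were higher and 13.7% lower.

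**Figure D2:**
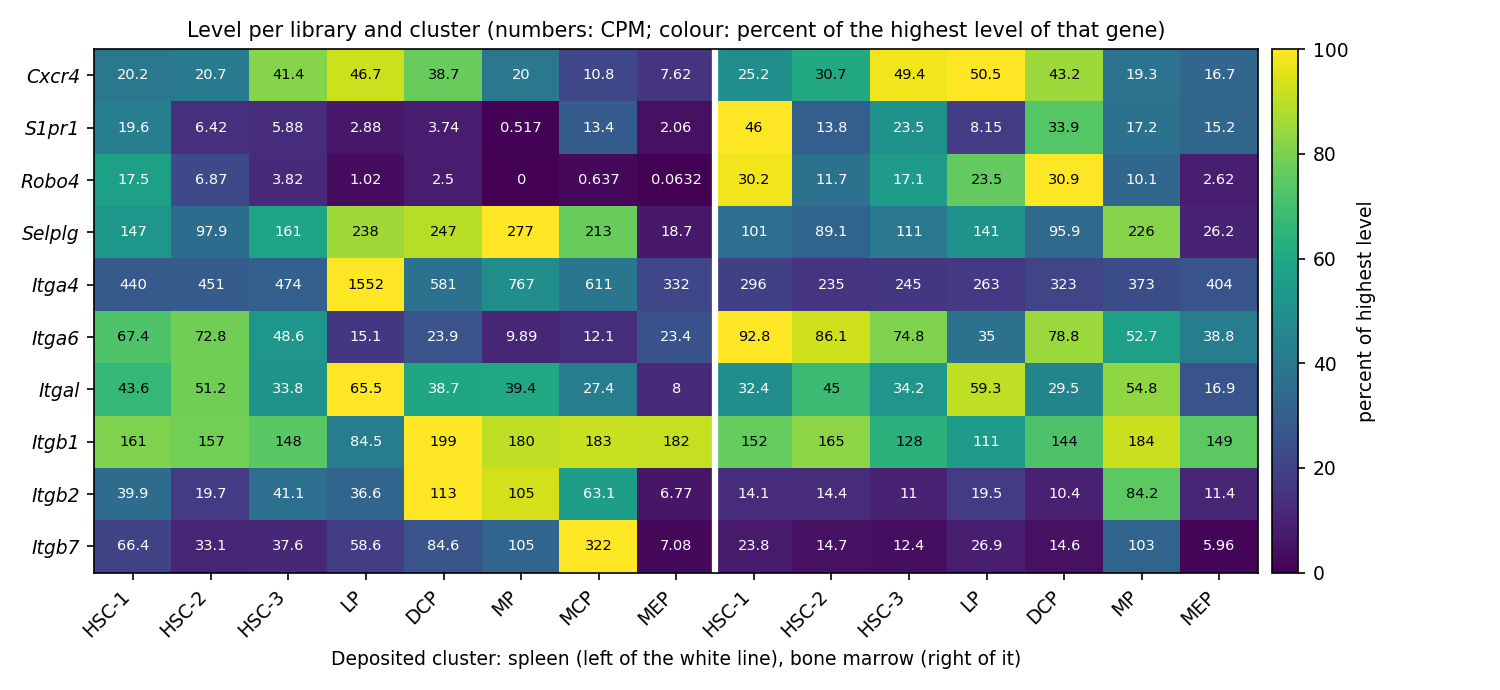
Level of each gene in every library and cluster with at least 100 cells, spleen left of the white line and bone marrow right of it. Numbers are CPM over all cells and colour is the percent of the highest level of that gene. Itga4 peaks at 1552 CPM in spleen LP, Itgb7 at 322 CPM in spleen MCP and Itgb2 at 113 CPM in spleen DCP, whereas S1pr1 and Itga6 peak in bone marrow HSC-1 at 46.0 and 92.8 CPM.

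Among the integrins, Itga4 (chromosome 2, 79255426 to 79333123, plus strand) had 550 CPM in spleen (47298 UMIs) and 277 CPM in bone marrow (20456 UMIs), a ratio of 1.98 (1.95 to 2.02). Immune-labelled cells supplied 63.1% of its spleen UMIs and 2.08% of its bone marrow UMIs. Without them it had 331 CPM in spleen and 275 CPM in bone marrow, a ratio of 1.20 (1.18 to 1.23) that is no longer called. In LP the level was 1552 CPM in spleen and 263 CPM in bone marrow, a 5.90-fold ratio (5.57 to 6.26), where 8.90% of genes were called higher. Spleen LP cells were 82.7% immune-labelled, and cells with the gamma-delta T label held 1703 CPM of Itga4. After immune-labelled cells were left out, LP had 692 CPM in spleen (120 cells) and 257 CPM in bone marrow (761 cells), a ratio of 2.69 (2.46 to 2.95).

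The spleen LP cells that remained still held T, NK or innate lymphoid markers, 1690 CPM over 11 genes against 70.8 CPM in bone marrow, with Cd3e and Cd3g at 0 in both. The part of those cells in the Itga4 ratio of LP was not tested. In HSC-1 without immune-labelled cells Itga4 was 315 CPM in spleen and 296 CPM in bone marrow, a ratio of 1.06 (1.02 to 1.11). MEP went the other way, with 332 CPM in spleen and 404 CPM in bone marrow, a ratio of 0.822 (0.781 to 0.866). Itga4 overlaps Cerkl, which lies on the opposite strand, so reads of the overlap were separable only if the counting used strand.

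Itgb7 (chromosome 15, 102215995 to 102231944, minus strand) had 50.9 CPM in spleen (4370 UMIs) and 19.2 CPM in bone marrow (1419 UMIs), a ratio of 2.64 (2.49 to 2.81). Immune-labelled cells supplied 81.0% of its spleen UMIs, and among spleen labels it was high in mast cells (422 CPM), basophils (302 CPM), macrophages (106 CPM) and Cst3-high dendritic cells (102 CPM). Without immune-labelled cells its level was 15.8 CPM in spleen and 18.0 CPM in bone marrow, a ratio of 0.876 (0.802 to 0.957), the opposite direction. The MEP cluster, which held most UMIs of the remaining spleen cells, had 6.89 CPM of Itgb7 in spleen and 5.96 CPM in bone marrow.

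Within the 5 clusters read without immune-labelled cells, Itgb7 was called higher in 2, while Itga4 and Itgb2 were called higher in 1 each and the other 7 members in 0. In HSC-2 it had 27.0 CPM in spleen and 14.7 CPM in bone marrow, a ratio of 1.84 (1.54 to 2.21), where 1.47% of 8484 genes were called higher. In LP it had 62.5 CPM in spleen and 26.7 CPM in bone marrow, a ratio of 2.35 (1.73 to 3.16), where 7.08% of 8405 genes were called higher. In HSC-1 it had 34.4 CPM in spleen and 23.8 CPM in bone marrow, a ratio of 1.45 (1.25 to 1.67), under the limit. In HSC-3 the levels, 13.7 CPM in spleen and 12.4 CPM in bone marrow, gave a ratio of 1.11 (0.801 to 1.51).

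The ratio interval of Itgb7 lay above 1 in 2 of 4 atlas labels of progenitors. In cells labelled as fetal-liver stem and progenitor cells it had 20.3 CPM in spleen and 12.6 CPM in bone marrow, a ratio of 1.62 (1.31 to 2.0). In Ctla2a-high multipotent progenitors it had 38.9 CPM in spleen and 21.9 CPM in bone marrow, a ratio of 1.77 (1.58 to 1.99), and in megakaryocyte progenitors 12.4 CPM in spleen and 12.6 CPM in bone marrow, a ratio of 0.985 (0.674 to 1.43). In Car1-high erythrocyte progenitors the ratio was 1.37 (0.722 to 2.88). With clusters weighted alike and immune-labelled cells left out, Itgb7 was the 1 member called higher (log2 ratio 0.61) and S1pr1 the 1 member called lower (log2 ratio -0.98). In HSC-1 without immune-labelled cells, mast or basophil markers still summed to 174 CPM in spleen and 16.2 CPM in bone marrow, and T, NK or innate lymphoid markers to 124 CPM in spleen and 22.5 CPM in bone marrow. Dendritic markers summed to 776 CPM in spleen and 693 CPM in bone marrow in the same cells. The part of such cells, or of free RNA from them, in the Itgb7 ratio was not tested.

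**Figure D3:**
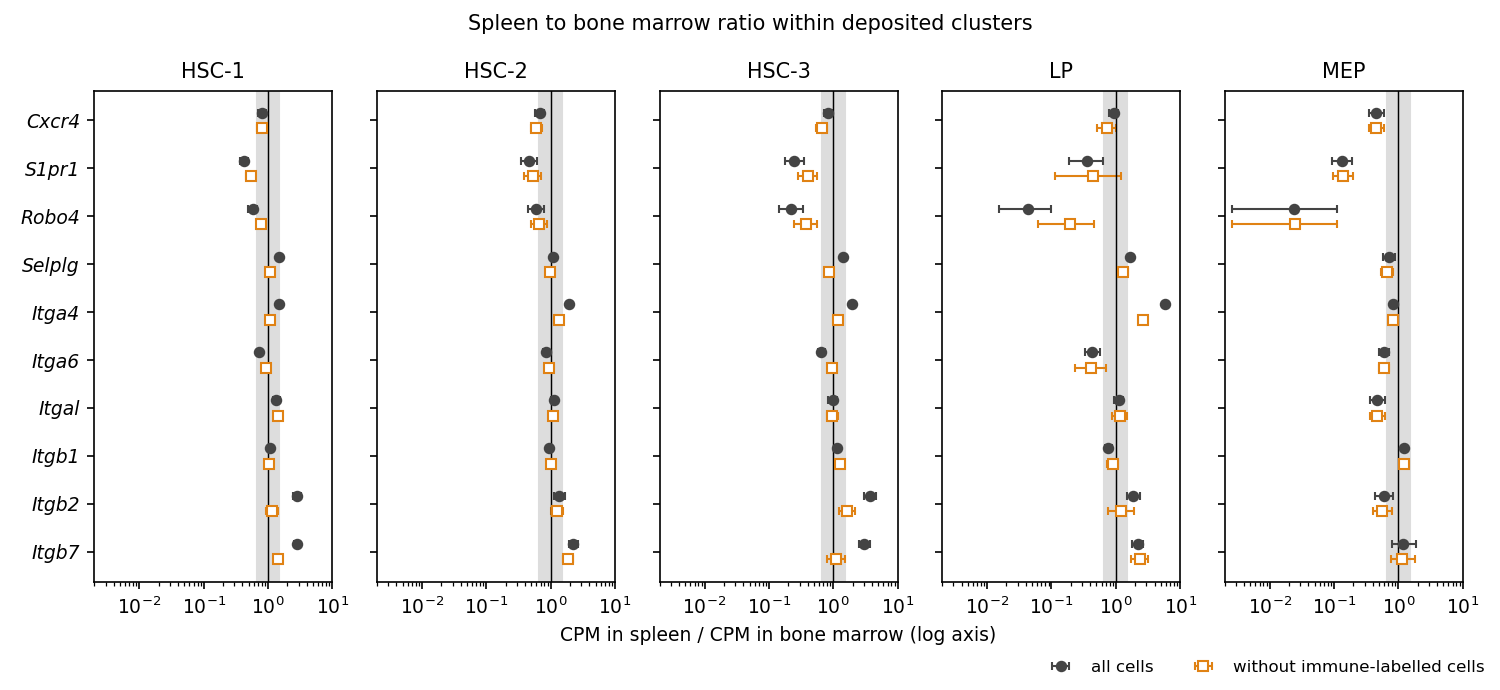
Ratio of the spleen level to the bone marrow level (log axis) for each gene in the 5 clusters with at least 100 cells in both libraries without immune-labelled cells. Filled circles are all cells, open squares are without immune-labelled cells, bars are 95% counting intervals and the grey band runs from 1.5-fold lower to 1.5-fold higher. S1pr1 and Robo4 lie left of 1 in every panel, and Itgb2 in HSC-1 stands at 2.83 over all cells and at 1.16 without immune-labelled cells.

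Itgb2 (chromosome 10, 77530252 to 77565708, plus strand) had 41.8 CPM in spleen (3589 UMIs) and 14.6 CPM in bone marrow (1075 UMIs), a ratio of 2.86 (2.68 to 3.07). Immune-labelled cells supplied 84.0% of its spleen UMIs, the highest share among the members. The DCP cluster had 113 CPM in spleen and 10.4 CPM in bone marrow, a 10.8-fold ratio (7.77 to 15.6), where 13.7% of 8443 genes were called higher. In this cluster 84.8% of spleen DCP cells and 0.794% of bone marrow DCP cells were immune-labelled. Without immune-labelled cells the library levels were 10.9 CPM in spleen and 13.6 CPM in bone marrow, a ratio of 0.802 (0.722 to 0.889). In MP, where most cells of both tissues were immune-labelled, Itgb2 had 105 CPM in spleen and 84.2 CPM in bone marrow, a ratio of 1.25 (1.00 to 1.58). HSC-3 was the 1 cluster in which Itgb2 was called higher without immune-labelled cells, with 18.2 CPM in spleen and 11 CPM in bone marrow, a ratio of 1.65 (1.23 to 2.21), where 4.38% of 8473 genes were higher.

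Itgal (chromosome 7, 127296260 to 127335138, plus strand), the alpha partner of Itgb2 in LFA-1, had 30.7 CPM in spleen (2637 UMIs) and 37.3 CPM in bone marrow (2748 UMIs), a ratio of 0.823 (0.780 to 0.869). Without immune-labelled cells it was called lower, with 23.2 CPM in spleen and 37 CPM in bone marrow, a ratio of 0.625 (0.584 to 0.669). It was highest in LP of both tissues, with 65.5 CPM in spleen and 59.3 CPM in bone marrow, intervals that overlap. In HSC-1 its ratio was 1.35 (1.20 to 1.51) over all cells and 1.42 (1.25 to 1.61) without immune-labelled cells, and in MEP 0.473 (0.362 to 0.624), with 8.00 CPM in spleen and 16.9 CPM in bone marrow. In thinned cells, Itgal and Itgb2 UMIs occurred together in 2.45% of spleen cells and 0.738% of bone marrow cells, close to the 2.09% in spleen and 0.656% in bone marrow that the separate shares would give if they were independent.

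Itga6 (chromosome 2, 71745616 to 71858416, plus strand) had 32.9 CPM in spleen (2826 UMIs) and 79.4 CPM in bone marrow (5857 UMIs), a ratio of 0.414 (0.396 to 0.433). Without immune-labelled cells it had 45.1 CPM in spleen and 79.8 CPM in bone marrow, a ratio of 0.565 (0.538 to 0.593). It was highest in HSC-2 and HSC-1 in spleen and in HSC-1 and HSC-2 in bone marrow. In HSC-1, HSC-2 and HSC-3 without immune-labelled cells the ratios were 0.936 (0.859 to 1.02), 0.938 (0.855 to 1.03) and 0.951 (0.831 to 1.09). It was called lower in these cells in LP, with 14.5 CPM in spleen and 34.9 CPM in bone marrow, and in MEP, with 23.4 CPM in spleen and 38.8 CPM in bone marrow. Cells labelled as megakaryocyte progenitors held more Itga6 than any of these clusters, 111 CPM in spleen and 145 CPM in bone marrow, a ratio of 0.763 (0.679 to 0.857). Gene models on the same strand, Gm13662 and Gm13663, overlap Itga6, so its reads could be split with them.

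Itgb1 (chromosome 8, 128685654 to 128733200, plus strand) had 168 CPM in spleen (14431 UMIs) and 148 CPM in bone marrow (10923 UMIs), a ratio of 1.13 (1.11 to 1.16). Without immune-labelled cells the ratio was 1.17 (1.13 to 1.20). Over all cells it passed 1.5-fold in 0 of 7 clusters. Its cluster ratios ran from 0.764 in LP to 1.39 in DCP. LP was its lowest cluster in both tissues, with 84.5 CPM in spleen and 111 CPM in bone marrow.

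Because alpha4 pairs with either beta1 or beta7, the 2 beta chains were set against each other within the same cells. UMIs tag the 3′ end and are not scaled by transcript length, but capture can differ between the 2 genes, so the share of Itgb7 among Itgb1 and Itgb7 UMIs is read between tissues and clusters rather than as a ratio of proteins. Over all cells it was 23.2% in spleen (22.6 to 23.9) and 11.5% in bone marrow (10.9 to 12.1), and without immune-labelled cells 8.38% in spleen (7.84 to 8.94) and 10.9% in bone marrow (10.3 to 11.4). By cluster without immune-labelled cells it was higher in spleen in HSC-1 (18.1% in spleen and 13.5% in bone marrow), HSC-2 (14.0% in spleen and 8.17% in bone marrow) and LP (38.8% in spleen and 19.4% in bone marrow). The intervals did not overlap in these 3 clusters and overlapped in HSC-3 and MEP.

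**Figure D4:**
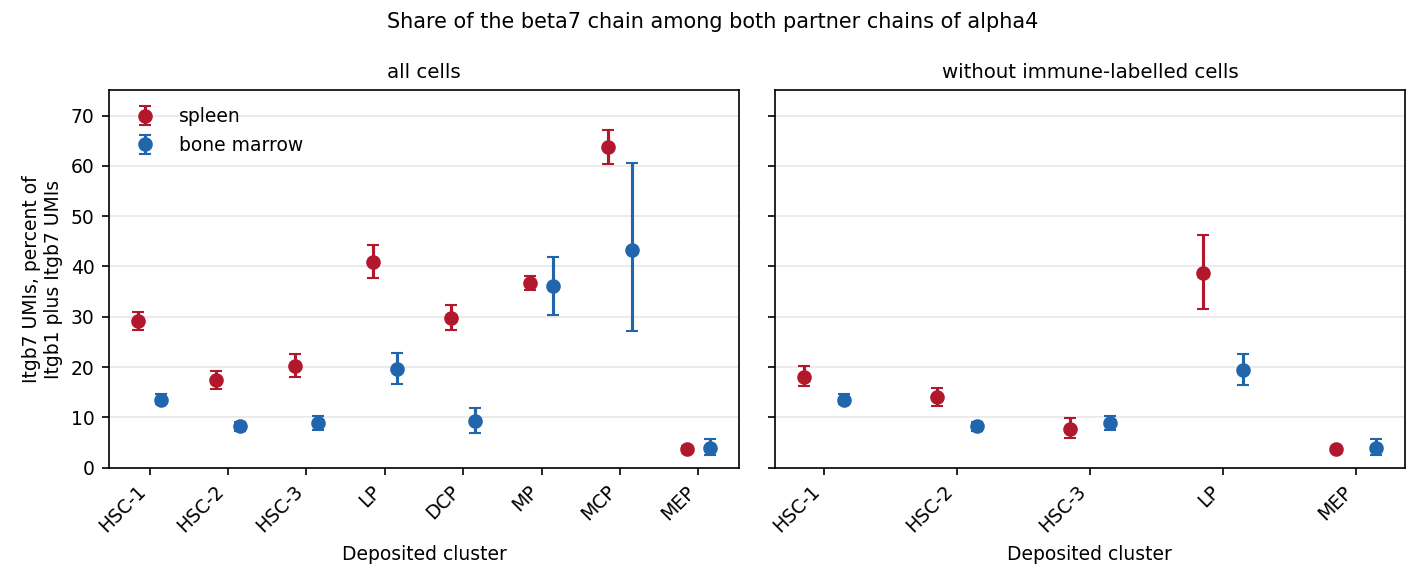
Itgb7 UMIs as a percent of Itgb1 plus Itgb7 UMIs by cluster in spleen (red) and bone marrow (blue), over all cells (left) and without immune-labelled cells (right); bars are 95% exact binomial intervals. MCP is drawn for both tissues, although its bone marrow part holds 36 cells. Spleen MCP reaches 63.8%, and MEP stays at 3.75% in spleen and 3.84% in bone marrow.

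In the spleen the share of Itgb7 over all cells ordered the clusters from MCP (63.8%) through LP (40.9%), MP (36.7%), DCP (29.8%), HSC-1 (29.2%), HSC-3 (20.2%) and HSC-2 (17.4%) to MEP (3.75%). The LP and MP intervals overlapped, as did those of DCP and HSC-1 and those of HSC-3 and HSC-2. This order changed without immune-labelled cells, with spleen shares of 18.1% in HSC-1, 14.0% in HSC-2, 7.74% in HSC-3 and 7.27% in the 46 DCP cells left. In bone marrow MP was at 36.0%, LP at 19.5% and HSC-1 at 13.5%, and MEP was again lowest at 3.84%. Cells with both an Itga4 and an Itgb7 UMI after thinning were 15.5% of spleen cells (14.6 to 16.4) and 4.28% of bone marrow cells (3.88 to 4.72). Independence of the 2 shares over each library would give 14.1% in spleen, below that interval, and 4.39% in bone marrow. Inside HSC-1 cells with both UMIs were 11.4% in spleen (9.75 to 13.3) and 5.47% in bone marrow (4.80 to 6.20), close to the 10.5% in spleen and 5.33% in bone marrow that independence of the 2 shares would give. These HSC-1 values include immune-labelled cells, which were 30.0% of HSC-1 cells in spleen and 0.0396% in bone marrow.

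**Figure D5:**
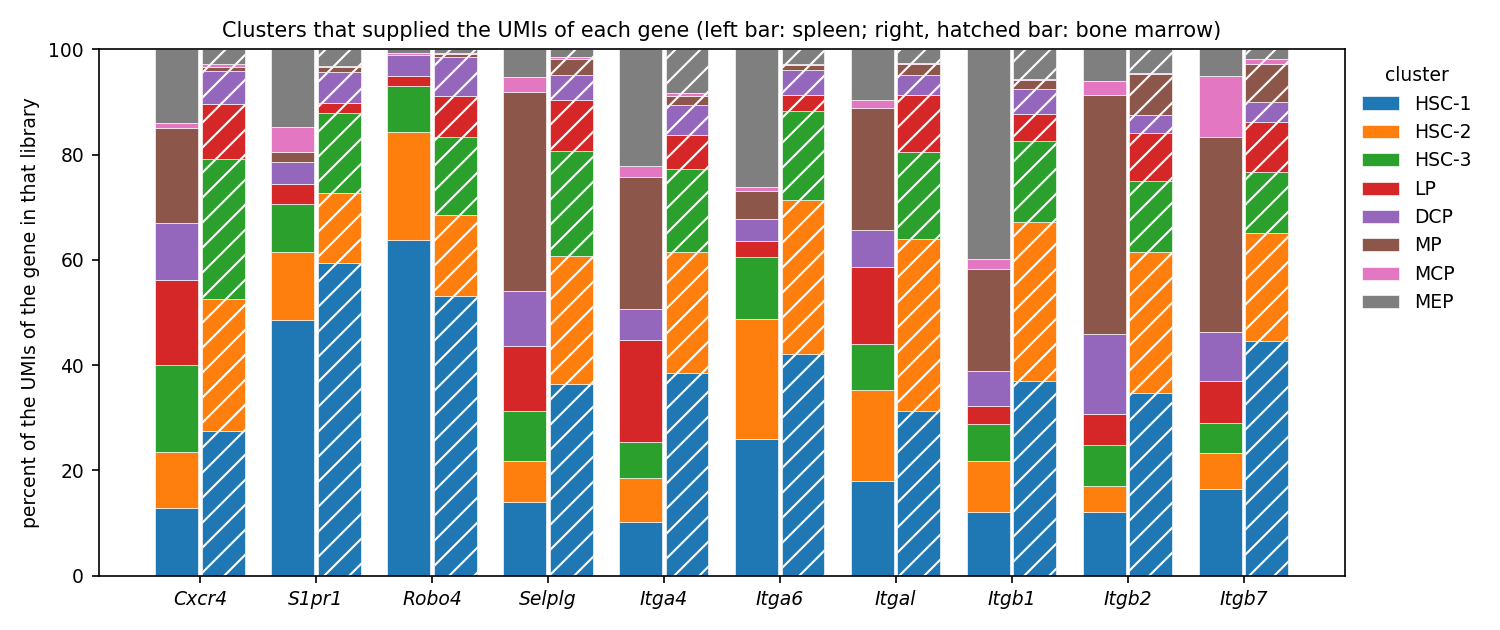
Percent of the UMIs of each gene supplied by each cluster, with the spleen as the left bar and the bone marrow as the right, hatched bar of each pair. HSC-1 supplied 48.5% of S1pr1 UMIs and 63.8% of Robo4 UMIs in spleen, against 59.4% and 53.0% in bone marrow, while MP supplied 37.7% of Selplg UMIs in spleen and 3.04% in bone marrow.

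The members fell into patterns across the 15 library and cluster sums with at least 100 cells, described here by Pearson correlations of log2(CPM + 1) with no test, since sums of 1 library share depth and cells. Itgb2 and Itgb7 were most alike (0.89). Robo4 and Itga6 were alike (0.86), as were Robo4 and S1pr1 (0.81). Selplg was alike to Itgb7 (0.84), Itgb2 (0.82) and Itgal (0.79), while Itga4 ran against Itga6 (-0.72). Among 8729 genes, the closest to Robo4 was Msrb3 (0.988), followed by Efcc1 and Dst. The closest to Itga6 was Csgalnact1 (0.986). Itgb2 was most like Rab11fip4 (0.989), S1pr1 most like Fam126b (0.937), Selplg most like Lbh (0.985), Itgb7 most like Rnf19b (0.957), Itgal most like Slc27a1 (0.947), Itga4 most like Nck2 (0.899), Itgb1 most like Pacsin2 (0.893) and Cxcr4 most like Cdk19 (0.889).

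The whole family of integrin chains was counted next, with all genes as background at 10.8% higher and 18.3% lower over all cells and 14.4% higher and 23.7% lower without immune-labelled cells, which holds for each list below. All lists were counted over whole libraries and not within clusters. Without immune-labelled cells, MEP held most of the remaining spleen UMIs, while it gave 5.69% of all bone marrow UMIs. The part of MEP cells in the list counts and values was not tested. Of 18 alpha chains, the members Itga4, Itga6 and Itgal among them, 10 passed the filter, with 3 higher, 4 lower and a median log2 ratio of -0.24, beside -0.11 for all genes tested. Itgae, the alphaE partner of beta7, had 19.6 CPM in spleen and 1.07 CPM in bone marrow (log2 ratio 3.32), and Itgax, the CD11c chain that also stands among the dendritic markers, had 20.1 CPM in spleen and 1.21 CPM in bone marrow (log2 ratio 3.26). Itgam, the CD11b chain of myeloid cells, had 4.77 CPM in spleen and 15.4 CPM in bone marrow (log2 ratio -1.51). Itga2b, the platelet chain CD41, had 22.6 CPM in spleen and 52.1 CPM in bone marrow (log2 ratio -1.17), and its partner Itgb3 7.44 CPM in spleen and 19.0 CPM in bone marrow (log2 ratio -1.25). Without immune-labelled cells Itgae and Itgax did not pass the filter, and of 8 alpha chains measured 6 were lower and 0 higher.

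Genes around S1PR1 were called in both directions. Of 15 genes for S1P receptors, supply and regulators, the member S1pr1 among them, 11 were measured, with 3 higher and 3 lower, S1pr1 among the lower. Sphk1, a kinase that makes S1P, had 24.8 CPM in spleen and 2.10 CPM in bone marrow (log2 ratio 3.06), and the erythroid S1P exporter Mfsd2b 29.0 CPM in spleen and 13.4 CPM in bone marrow (log2 ratio 1.06). Erythroid markers summed to 1630 CPM in spleen and 322 CPM in bone marrow beside these values, and their part in them was not tested. The S1P exporter Spns2 had 42.3 CPM in spleen and 127 CPM in bone marrow (log2 ratio -1.57), and Cd69, which draws S1PR1 inside the cell, 29.1 CPM in spleen and 50.2 CPM in bone marrow (log2 ratio -0.77). Without immune-labelled cells 6 of the 11 were lower, S1pr1 again among them, and 2 higher. In these cells Klf2, a factor that drives S1pr1 in T cells, was among the lower genes, with 35.7 CPM in spleen and 104 CPM in bone marrow (log2 ratio -1.52). It was not among the 3 genes called lower over all cells. A link between Klf2 and S1pr1 levels was not tested.

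Of 25 genes of CXCR4 signalling and trafficking, 20 were measured, with 3 higher, 2 lower and a median log2 ratio of -0.03. Without immune-labelled cells 3 were higher and 9 lower, with a median of -0.48, beside -0.13 for all genes. Rgs1, a brake on G-protein signalling, had 89.3 CPM in spleen and 243 CPM in bone marrow (log2 ratio -1.43), and Rgs10, of the same family, 192 CPM in spleen and 41.3 CPM in bone marrow (log2 ratio 2.19). Without immune-labelled cells Rgs1 was still lower (log2 ratio -1.98) and Rgs10 still higher (log2 ratio 1.71). Of 22 chemokine receptors, 3 were measured: Cxcr4, Xcr1, which marks cross-presenting dendritic cells (log2 ratio 4.48), and Ccr9, a gut-homing receptor (log2 ratio 2.34). Without immune-labelled cells Cxcr4 was the 1 chemokine receptor above the filter.

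Selectin and adhesion genes were counted in the same way. Of 13 measured genes among 19 for selectins, their ligands and glycosylation, 4 were lower and 0 higher, with Fut7, the fucosyltransferase that completes selectin ligands, at 6.78 CPM in spleen and 23.0 CPM in bone marrow (log2 ratio -1.63). In the selectin list without immune-labelled cells, 14 genes were measured, with 3 higher and 6 lower, the member Selplg among the lower. Of 14 measured genes among 23 other adhesion genes, 7 were lower and 1 was higher, with a median of -0.71, and without immune-labelled cells 8 were lower and 2 higher. Emcn, endomucin, had 3.86 CPM in spleen and 20.0 CPM in bone marrow (log2 ratio -2.11), and Cd9, a tetraspanin, 122 CPM in spleen and 58.5 CPM in bone marrow (log2 ratio 1.05). Of 26 measured genes for integrin activation, 23 lay between the limits over all cells, while without immune-labelled cells 15 lay between and 11 were lower. Rasgrp2, which switches on RAP1, was lower over all cells with 55.0 CPM in spleen and 125 CPM in bone marrow (log2 ratio -1.18). Robo1, Robo2, Robo3 and the Slit genes did not pass the filter, and over all cells Robo4 was the 1 gene called among 3 measured in the Robo and Slit list. Without immune-labelled cells 2 of the 3 were lower, with a median log2 ratio of -1.28, beside -0.13 for all genes.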

How the data were processed

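RNA of LSK cells was measured in 1 spleen and 1 bone marrow library of the Chromium 3′ assay. Per the labels' protocols, cells were enriched on magnetic beads, either by lineage depletion or by CD117, before the flow sort; which step served which tissue is not given in the sources used here. The deposited count tables hold UMI counts per gene and cell. The series' design text gives Cell Ranger 3.1.0, mm10 and a depth near 27000 reads per cell, while the submitters' processing notes list mm9 and Seurat 3.1.5, and the kit is named with different versions. Cell filters and doublet treatment are not given in the sources used here. Clusters and reference labels are the authors', from the deposited cell table; a batch-integrated matrix was not used.

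Symbols and coordinates came from GENCODE M21 (mm10) by Ensembl identifier (31011 of 31053 matched); promoter windows are from RefSeq (GRCm38.p6). No deposited cell was left out. UMIs were summed per library, cluster or label and scaled to CPM; sums have exact Poisson intervals, ratios of sums exact conditional binomial intervals and shares exact Clopper-Pearson intervals, at 95%. Log2 ratios added 1 CPM to both levels. For equal depth, cells were thinned to 3700 UMIs, which left out 672 spleen and 1007 bone marrow cells. The calculations were tested on simulated data. Alternatives used edgeR 4.0.16 for TMM scaling, and Python 3.11.15, numpy 2.4.6, scipy 1.17.1 and pandas 2.3.3 were used throughout. No test across samples was possible.

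The members were fixed by name. Named genes were the members, of each pathway list the 2 highest and 2 lowest log2 ratios, other integrin chains above 10 CPM in 1 library, and the genes most correlated with each member; Klf2, Cd69 and the values of Rgs1 and Rgs10 without immune-labelled cells were chosen for the text once their values were known. Some genes that the rule names are not printed. The members and lists were chosen with earlier results of these data known. The 3 genes whose promoters are shown were picked after their levels were seen.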

Additional observations from a re-analysis of the deposited data

How the results depend on the processing

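The 10 log2 ratios over all cells (3 members higher, 4 lower) were recomputed under 10 alternatives each, of which removal of cells labelled immune in either label set, and removal with clusters weighted alike, were chosen after seeing the data. S1pr1 and Robo4 stayed below 0 in all of them, between -2.43 and -0.98 and between -2.53 and -0.53. Without cells of immune atlas labels, 0 members were higher, the log2 ratios of Itgb2 and Itgb7 turned to -0.29 and -0.18, the calls higher summed over clusters were 4 (11 over all cells in the same 5 clusters), and the share of Itgb7 among beta1 and beta7 UMIs was 8.38% in spleen and 10.9% in bone marrow. Without cells labelled immune in either set, 0 members were higher and the same ratios were -0.33 and -0.24. Without immune-labelled cells and with clusters weighted alike, 1 member was higher and 1 lower. Thinned cells gave an Itgb7 share of 28.2% in spleen and 12.1% in bone marrow. TMM scaling moved the median log2 ratio of all genes to 0.10, against -0.11 as reported, and gave 4 members higher and 3 lower. The cause of these changes was not tested. Removing cells by UMIs of immune markers left fewer than 100 spleen cells in every cluster (6446 of 6546 spleen cells were removed), so it gave no values. No paired analysis was possible because there is 1 library per tissue. Counts limit Robo4 most: it had 6 UMIs in spleen LP and 2 in spleen MEP.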
